A study of Mus musculus with 20 samples.

Results

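Grik3, Scn7a, Cacna2d1, Map1b, Ptprz1, Vsnl1 and Dpysl2 are genes best known from neurons and glia, and in mammary basal cells that carried active mutant PIK3CA their arrays read lower than in other basal cells. The 7 genes were picked by symbol from 19937 genes with a probe set of a single symbol. They were picked as basal genes that were lower in GFP-positive mutant basal cells. That choice used the basal comparisons of GFP-positive cells, so their values there are a description, without a test. The choice set no limit on size. Comparisons among luminal cells did not enter the choice and were tested. GFP-negative mutant basal cells against control basal cells were also tested, but the arrays of both groups stand in the comparisons behind the choice, so that test is not independent of it.

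Expression was measured on 20 Affymetrix arrays of sorted mouse mammary cells, in 7 groups. Mutant mice were K8-creERT2/PIK3CA H1047R and control mice were K8-creERT2, all on a mixed FVB/CD-1 background. Both genotypes received tamoxifen and were sampled 4 weeks later, and their age is not given in the sources used here. PIK3CA is the catalytic subunit of the growth-signalling enzyme PI3K, H1047R is a change that makes it overactive, and the keratin 8 promoter that drives the Cre is known for luminal activity. GFP marked the cells that expressed the transgene. The mutant groups were GFP-positive basal, GFP-negative basal, GFP-positive Sca1-negative luminal and GFP-positive Sca1-positive luminal cells. The control groups were GFP-negative basal, Sca1-negative luminal and Sca1-positive luminal cells. All control cells were GFP-negative, so where GFP-positive mutant cells are set against control cells, genotype and sorting on GFP cannot be told apart. All cells were CD45 negative, and basal cells were CD24 low and Sca1 negative, while luminal cells were CD24 high. Each array held amplified RNA of 2000 cells from glands of 2 to 3 mice, which were pooled in 3 independent sortings. The study design names estrus for these mice. Of the groups, 6 had 3 arrays, and mutant Sca1-positive luminal cells had 2, numbered 1 and 3. Arrays of a group correlated at 0.931 to 0.971 over all 34760 probe sets. With so few arrays a group, precision is limited.

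Basal mammary cells, also called myoepithelial cells, wrap the luminal cells and contract to eject milk. Grik3 encodes a kainate-type glutamate receptor subunit, Scn7a encodes the atypical sodium channel Nax, and Cacna2d1 encodes the alpha2delta-1 subunit that carries voltage-gated calcium channels to the membrane. Ptprz1 encodes a receptor tyrosine phosphatase of glia that is inactivated when it binds pleiotrophin. Map1b and Dpysl2 (CRMP2) encode proteins that bind microtubules or tubulin in growing axons, and Vsnl1 encodes the neuronal calcium sensor visinin-like 1.

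The stretches just before the start sites are shown because the genes were lower together in 1 cell group while their upstream sequences differed in base composition. RefSeq (build GRCm38.p6) held promoters for 6 of the 7 genes, with 2 for Vsnl1, and 250 bases before the start were used. Dpysl2 is named only. The motifs searched on both strands were a FOXO core (GTAAACA), a TEAD motif (GGAATG), a SOX motif (ACAAAG), an E-box (CAGCTG) and the right-hand part of the REST site (GGACAG). No matches overlap each other in the stretches shown. Capitals mark a match, each line runs 5′ to 3′ on the gene's strand, and Scn7a is on the minus strand at chr2:66784911-66785160, Ptprz1 on the plus strand at chr6:22875252-22875501, and Grik3 on the plus strand at chr4:125490446-125490695.
Scn7a: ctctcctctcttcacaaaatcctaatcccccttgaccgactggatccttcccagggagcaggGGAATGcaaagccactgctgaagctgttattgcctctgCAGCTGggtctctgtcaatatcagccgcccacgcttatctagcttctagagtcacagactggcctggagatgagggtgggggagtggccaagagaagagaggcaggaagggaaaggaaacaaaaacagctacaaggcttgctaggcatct
Ptprz1: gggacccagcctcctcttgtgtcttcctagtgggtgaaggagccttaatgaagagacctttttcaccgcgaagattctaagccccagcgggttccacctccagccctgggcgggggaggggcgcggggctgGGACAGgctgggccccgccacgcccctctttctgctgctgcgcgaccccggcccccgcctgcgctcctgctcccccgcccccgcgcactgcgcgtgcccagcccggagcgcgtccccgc
Grik3: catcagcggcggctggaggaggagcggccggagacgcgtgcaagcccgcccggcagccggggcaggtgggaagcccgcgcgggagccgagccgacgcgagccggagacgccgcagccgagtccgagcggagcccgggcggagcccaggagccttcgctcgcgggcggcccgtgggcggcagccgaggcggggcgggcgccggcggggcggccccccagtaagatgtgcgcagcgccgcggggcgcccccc

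The Scn7a stretch had a GC content of 53.2% with 3 CpG pairs and held the TEAD motif and the E-box. The Ptprz1 stretch had a GC content of 71.6% with 22 CpG pairs and held the right-hand REST motif. The Grik3 stretch had a GC content of 82.0% with 42 CpG pairs and held none of the 5 motifs. Across all 32851 RefSeq mouse promoters of this length, the median GC content was 52.4% with 6 CpG pairs. The TEAD motif was in 12.6% of those promoters, the E-box in 13.0% and the right-hand REST motif in 18.7%. The FOXO core, in 3.17% of all promoters, and the SOX motif, in 16.5%, matched in 0 of the 7 promoters of these genes. A match is a description of letters, and its absence says only that the letters are not in the window.

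Among the channel and receptor genes, Grik3 had log2 levels of 3.58, 3.73 and 3.82 in GFP-positive mutant basal cells, 8.97, 7.72 and 8.71 in GFP-negative mutant basal cells, and 8.66, 8.63 and 7.75 in control basal cells. Every GFP-positive array lay below every other basal array, and the 11 luminal arrays ran from 3.35 to 4.34. The GFP-positive basal arrays thus sat inside the luminal range for this gene. Scn7a had log2 levels of 5.75, 6.07 and 4.25 in GFP-positive mutant basal cells, 9.71, 8.75 and 9.61 in GFP-negative mutant basal cells, and 10.03, 9.53 and 9.55 in control basal cells. The groups did not overlap, yet Scn7a in GFP-positive basal cells stayed above all 11 luminal arrays, which ran from 2.99 to 3.32. Cacna2d1 had log2 levels of 3.05, 3.48 and 3.08 in GFP-positive mutant basal cells, 6.61, 6.18 and 7.68 in GFP-negative mutant basal cells, and 6.88, 5.61 and 6.39 in control basal cells. Its GFP-positive arrays were again below all others of the basal gate and their mean was higher than the 4 luminal group means by 0.15 (mutant Sca1-negative, where arrays overlapped) to 0.25 (mutant Sca1-positive, where they did not).

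Ptprz1 had log2 levels of 3.88, 3.83 and 3.59 in GFP-positive mutant basal cells, 6.70, 5.14 and 6.39 in GFP-negative mutant basal cells, and 6.87, 4.44 and 5.31 in control basal cells. The control basal arrays spread widely (SD 1.23, n = 3), and the lowest of them, 4.44, was still above the highest GFP-positive array. Among the cytoskeletal genes, Map1b had log2 levels of 7.23, 5.60 and 5.92 in GFP-positive mutant basal cells, 10.38, 9.67 and 10.04 in GFP-negative mutant basal cells, and 9.87, 9.69 and 9.44 in control basal cells. Dpysl2 had log2 levels of 4.29, 3.98 and 4.09 in GFP-positive mutant basal cells, 7.97, 6.02 and 6.47 in GFP-negative mutant basal cells, and 5.64, 7.74 and 6.40 in control basal cells. For both genes the GFP-positive arrays lay apart from the other 6 basal arrays. The calcium sensor gene Vsnl1 had log2 levels of 3.54, 4.59 and 3.42 in GFP-positive mutant basal cells, 7.22, 5.94 and 8.19 in GFP-negative mutant basal cells, and 6.73, 6.22 and 6.98 in control basal cells. Its second GFP-positive array was the highest of the 3 and still below every other basal array.

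**Figure D1:**
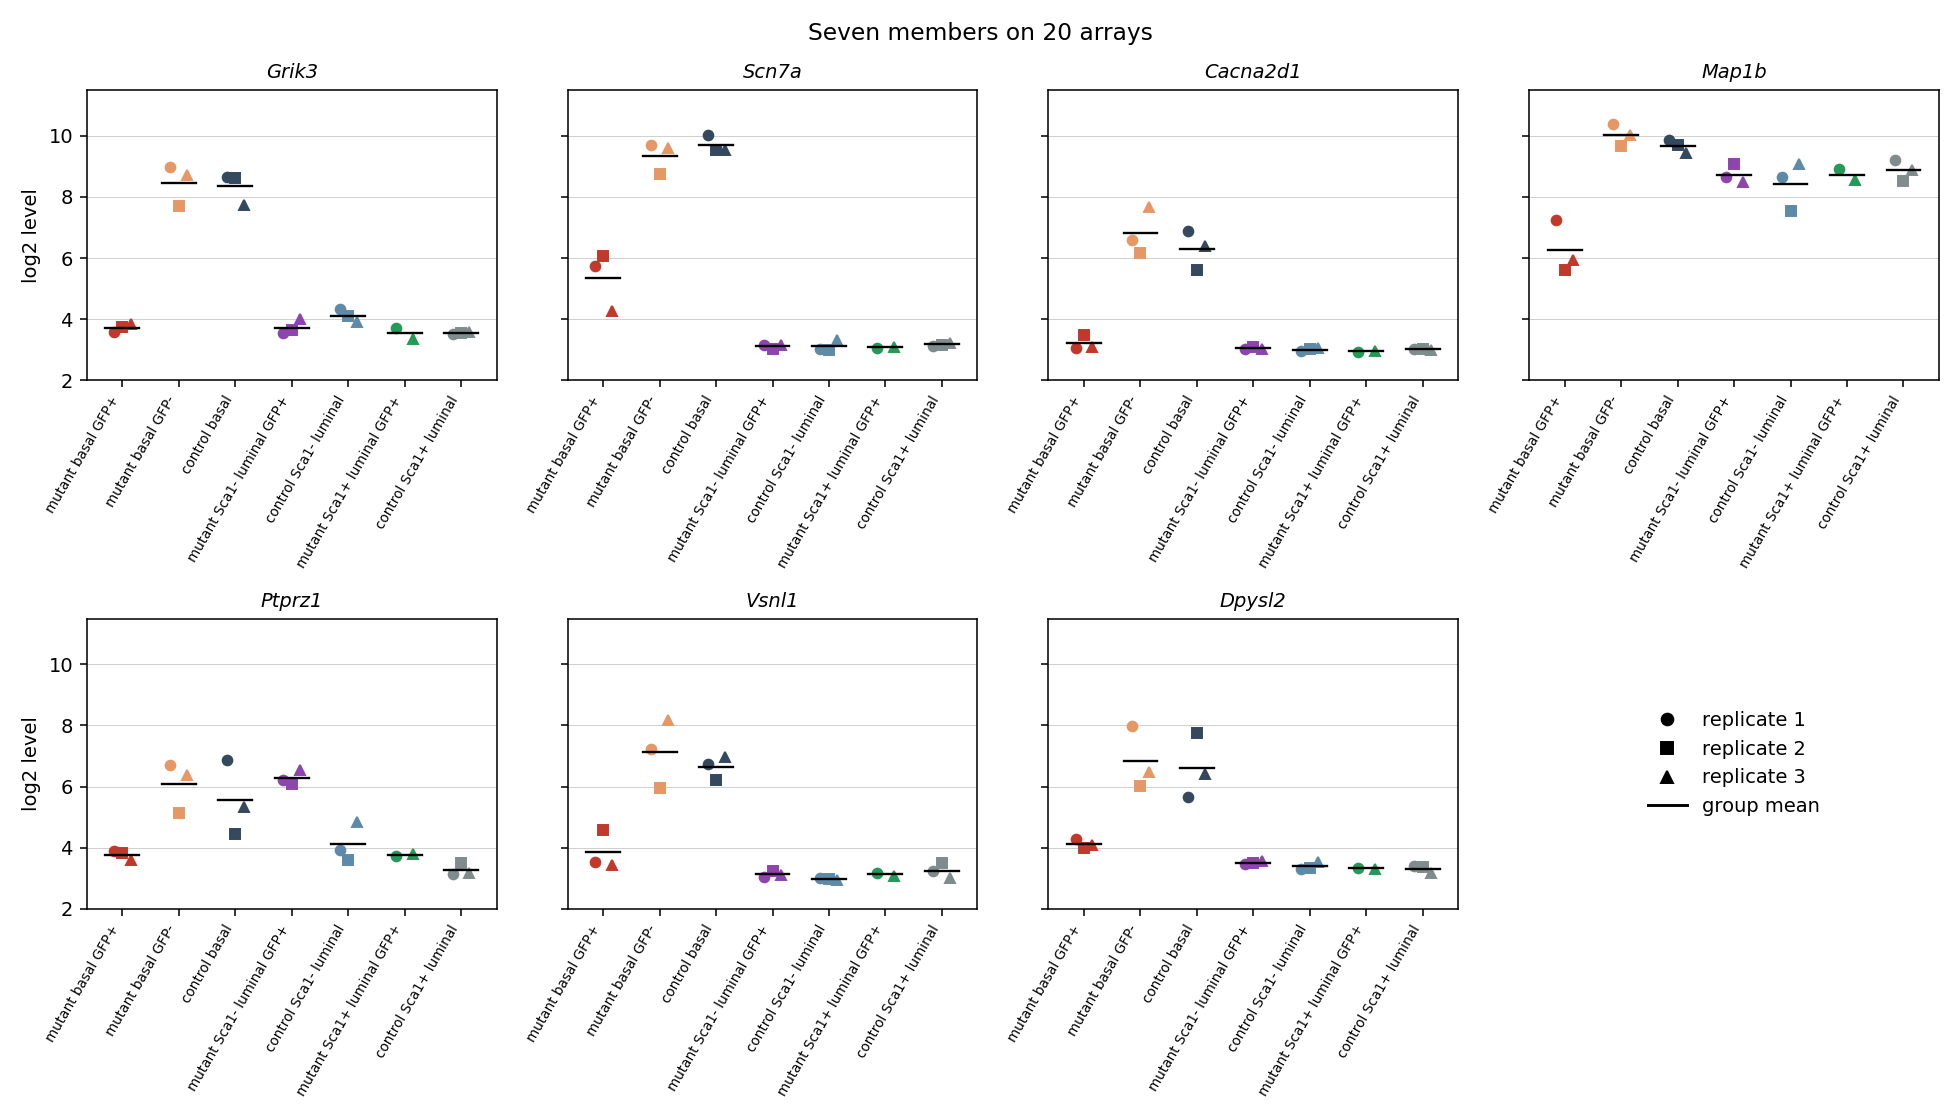
Log2 level of each of the 7 genes on every array (points) with group means (horizontal lines), in the 7 sorted groups. GFP-positive mutant basal arrays lie below the GFP-negative mutant and control basal arrays for every gene, Map1b is high in all 4 luminal groups, and Ptprz1 is high in mutant Sca1-negative luminal cells.

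Set against control basal cells, the GFP-positive mutant basal means differed on the log2 scale by -4.64 (Grik3), -4.34 (Scn7a), -3.41 (Map1b), -3.09 (Cacna2d1), -2.79 (Vsnl1), -2.48 (Dpysl2) and -1.78 (Ptprz1). Set against GFP-negative cells of the same mutant gate, they differed by -4.76 (Grik3), -4.00 (Scn7a), -3.78 (Map1b), -3.62 (Cacna2d1), -3.27 (Vsnl1), -2.70 (Dpysl2) and -2.31 (Ptprz1). The median difference was -3.09 against control cells and -3.62 against GFP-negative mutant cells, where the medians over all 19937 genes were -0.03 and -0.01. All 7 genes had GFP-positive arrays wholly below those of the other group, as 11.4% of all genes did against control basal cells and 7.96% did against GFP-negative mutant basal cells. These counts follow from the choice of the genes, and both comparisons share the GFP-positive arrays. In bulk RNA, fewer cells that hold a transcript and less of it per cell cannot be told apart. Without detection calls the lowest readings may lie at background, in which case the differences are understated.

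**Figure D2:**
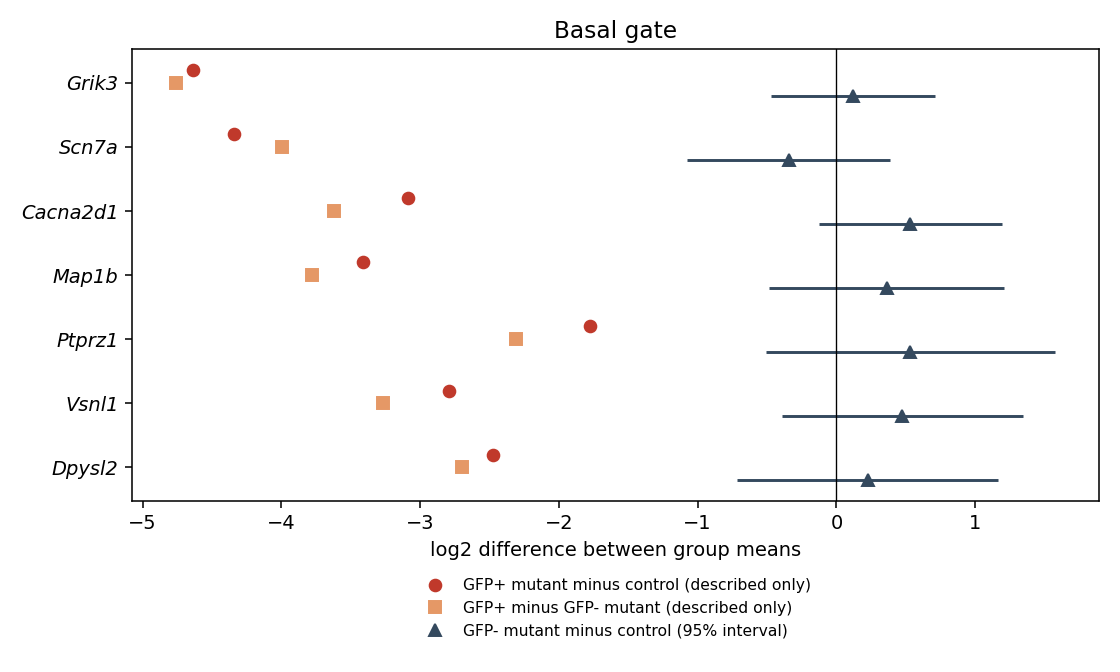
Log2 differences between basal groups for each gene: GFP-positive mutant minus control, GFP-positive minus GFP-negative mutant, and GFP-negative mutant minus control, the last with its 95% interval. The first pair of differences runs from -1.78 to -4.76, and the intervals of the last all include 0.

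Mutant mice also gave basal cells without GFP, which the labels describe as not expressing the transgene. No difference from control basal cells was detectable with the probe sets kept for the 7 genes, on arrays that the choice also used. By limma over all genes, with Benjamini-Hochberg adjustment and a call at an adjusted p under 0.05, 0 of the 7 genes were called and 0 had an unadjusted p under 0.05, while 0.161% of all genes were called. The GFP-negative mutant mean was the higher for 6 of the 7, and arrays of the groups overlapped for each of the 7. Most genes overlapped here, since 976 of all 19937 were wholly higher and 1749 wholly lower in the GFP-negative mutant arrays. Scn7a differed by -0.35 (SE 0.34, 95% interval -1.08 to 0.39, adjusted p = 0.8266), and Grik3 by 0.12 (SE 0.28, interval -0.47 to 0.71, adjusted p = 0.9534). Map1b differed by 0.36 (SE 0.40, interval -0.48 to 1.21), Vsnl1 by 0.47 (SE 0.41, interval -0.39 to 1.34), and Dpysl2 by 0.22 (SE 0.44, interval -0.72 to 1.17). The widest interval was that of Ptprz1, which differed by 0.53 (SE 0.49, interval -0.51 to 1.58).

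Cacna2d1 was the 1 gene of the 7 with another single-symbol probe set, and the 2 disagreed in this comparison. The brighter probe set differed by 0.53 between GFP-negative mutant and control basal cells (SE 0.31, interval -0.13 to 1.19, adjusted p = 0.6319). The dimmer one read 5.05, 5.39 and 6.31 in GFP-negative mutant basal cells, against 6.77, 6.75 and 6.77 in control basal cells. That is a difference of -1.18 (SE 0.21), which passed the threshold in a limma fit with this probe set (adjusted p = 0.03819). In GFP-positive mutant basal cells both probe sets were low, and the dimmer read 3.06, 3.24 and 2.99, a difference of -3.67 from its control basal mean.

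For the genes other than Ptprz1, all 6 GFP-negative mutant and control basal arrays lay above all 11 luminal arrays. Map1b met this by a narrow gap, with a lowest such basal array of 9.44 and a highest luminal array of 9.21. It ran from 7.55 to 9.21 over the luminal arrays, and the GFP-positive basal cells, at 6.25 ± 0.86 (SD, n = 3), held less than any luminal group. Their mean differed by -2.17 from control Sca1-negative and by -2.62 from control Sca1-positive luminal cells, with no overlap of arrays. Ptprz1 in control basal cells overlapped with control Sca1-negative luminal cells, which read 3.92, 3.58 and 4.83. GFP-positive basal means were above those of the 4 luminal groups by 2.18 to 2.29 for Scn7a and by 0.62 to 0.80 for Dpysl2, with no overlap of arrays. For Vsnl1 the means were 0.60 to 0.87 higher, and arrays overlapped with control Sca1-positive luminal cells. These differences of level between gates are descriptions. The genes were chosen as basal genes, so their separation from luminal arrays follows in part from the choice. How many of all genes separate the gates in this way was not computed.

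In Sca1-negative luminal cells, a gate known to hold luminal progenitors, the mutant arrays were higher for Ptprz1 and for no other of the 7 genes by the test. Ptprz1 read 6.22, 6.09 and 6.55 in mutant cells, against 3.92, 3.58 and 4.83 in control cells. It rose by 2.18 (SE 0.49, 95% interval 1.13 to 3.22, adjusted p = 0.03079, limma), with all 3 mutant arrays above all 3 control arrays. This direction was the opposite of the one in GFP-positive basal cells, whose mean of 3.77 ± 0.16 lay below the mutant luminal mean of 6.29 ± 0.24 (SD, n = 3 each, difference -2.52). Of all genes, 1.9% were called, and the median difference was 0.11 over the 7 genes and -0.03 over all. Map1b differed by 0.30 (adjusted p = 0.9046) and Grik3 by -0.39 (adjusted p = 0.721), and the other 4 differed by -0.00 to 0.15. Vsnl1, at 0.15 and not called, also had all mutant arrays above all control arrays. So did 1818 of all 19937 genes, while 2695 were wholly lower. The Ptprz1 call was lost, at adjusted p 0.07398 to 0.1262, when mutant array 1, 2 or 3 or control array 1 or 2 was left out. Differences then ran from 1.91 to 2.28, and without control array 3 the difference was 2.54 (adjusted p = 0.02535).

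In Sca1-positive luminal cells, a gate known to hold hormone-sensing cells, 0 of the 7 genes were called between mutant and control cells by limma, 0 had an unadjusted p under 0.05, and 0.226% of all genes were called. Ptprz1 read 3.71 and 3.78 in mutant cells, against 3.13, 3.51 and 3.18 in control cells. It differed by 0.47 (SE 0.55, interval -0.69 to 1.64, adjusted p = 0.8258), with both mutant arrays above the controls. The other 6 genes differed by -0.14 to 0.01, and of these Scn7a and Cacna2d1 were wholly lower in the mutant arrays. Such separation was common here, since 2170 of all 19937 genes were wholly higher and 3527 wholly lower. The difference of mutant from control cells in Ptprz1 differed by -1.70 in Sca1-positive from that in Sca1-negative cells (SE 0.74, interval -3.27 to -0.14, unadjusted p = 0.03463, adjusted p = 0.8086, limma). It was thus not shown to differ between the gates, and 0.14% of all genes passed that test.

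Between the luminal gates of the mutants, Ptprz1 was again the 1 gene of the 7 that passed. It was lower in Sca1-positive than in Sca1-negative mutant cells (difference -2.54, SE 0.55, interval -3.71 to -1.38, adjusted p = 0.01282), in a comparison that called 4.08% of all genes and shares the mutant Sca1-negative arrays. The call was lost without mutant Sca1-negative array 3 (adjusted p = 0.05221) or mutant Sca1-positive array 1 (adjusted p = 0.09839) or 3 (adjusted p = 0.09802). Between the same gates of controls 0 of the 7 were called, 0 had an unadjusted p under 0.05, and 0.762% of all genes were called. Ptprz1 differed there by -0.84 (SE 0.49, adjusted p = 0.7689) and Grik3 by -0.56 (SE 0.28, adjusted p = 0.6757).

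**Figure D3:**
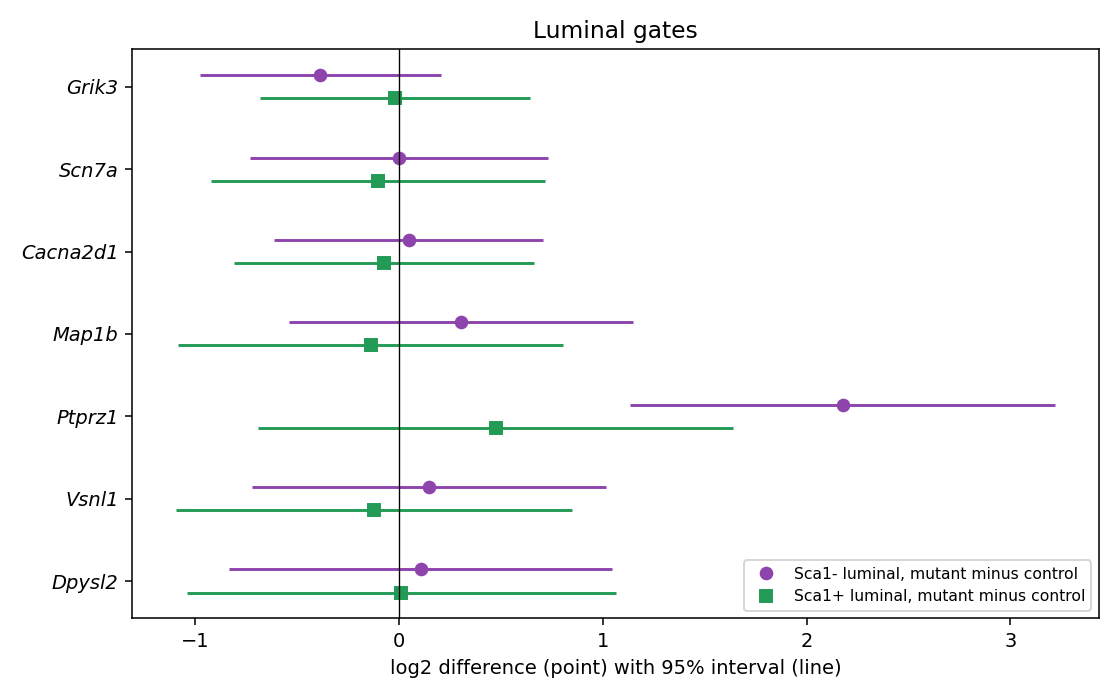
Log2 differences with 95% intervals for each gene between mutant and control luminal cells, in the Sca1-negative and the Sca1-positive gate. The interval of Ptprz1 in Sca1-negative cells, at 2.18, lies above 0, and all other intervals include 0.

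The genes for a pair of ligands of the Ptprz1 phosphatase passed the test in 1 each of the 4 mutant comparisons run on relatives. Pleiotrophin (Ptn) read 9.89, 9.47 and 9.12 in mutant Sca1-negative luminal cells, against 10.97, 11.00 and 10.74 in control cells of that gate. It fell by 1.41 there (SE 0.22, adjusted p = 0.00253, limma), in the gate where Ptprz1 rose. Midkine (Mdk), the related growth factor, read 4.60, 5.48 and 4.31 in GFP-positive mutant basal cells, against 6.57, 6.62 and 5.81 in control basal cells. Mdk fell by 1.54 (SE 0.27, adjusted p = 0.003177), in the gate where Ptprz1 was lower, and a fit on these arrays alone did not call it (adjusted p = 0.1409). In that basal comparison Ptn differed by 0.47 (adjusted p = 0.3223), and in Sca1-negative luminal cells Mdk differed by -0.11 (adjusted p = 0.9706).

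**Figure D4:**
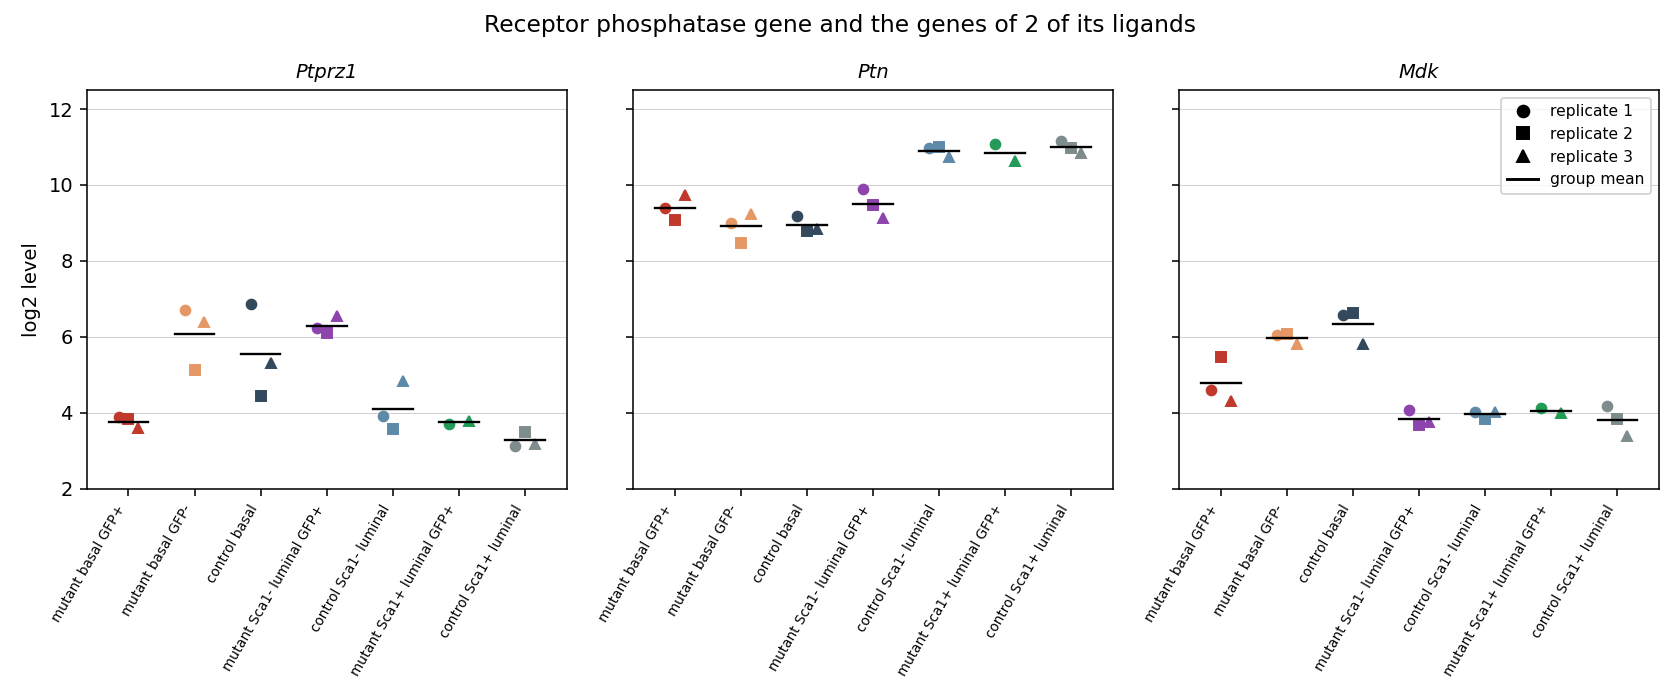
Log2 levels of Ptprz1 and of its ligand genes Ptn and Mdk on every array (points) with group means (horizontal lines). In mutant Sca1-negative luminal cells Ptprz1 averages 6.29 and Ptn 9.49, against 4.11 and 10.90 in control cells of the gate, and Mdk is lowest among basal groups in GFP-positive mutant cells.

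Most measured relatives of the 7 genes were not called in the comparison that chose them. Of 94 measured relatives in 7 families, 4 rose, 1 fell and 89 were not called in GFP-positive mutant against control basal cells, with a median difference of -0.02. Over all genes, 2.32% were called higher and 1.91% lower in this comparison. Among 17 other glutamate receptor genes, Gria3, an AMPA receptor subunit, read 5.62, 5.52 and 5.51 in GFP-positive mutant basal cells, against 3.41, 3.54 and 3.50 in control basal cells. It rose by 2.07 (SE 0.11, adjusted p = 1.308e-08) and averaged 3.41 or less in GFP-negative mutant basal cells and in mutant luminal cells. Neto2, which encodes an auxiliary subunit of kainate receptors, rose by 0.59 (SE 0.14, adjusted p = 0.02351), a call lost without control basal array 1 or 3 or GFP-positive array 1 or 2 (adjusted p 0.0689 to 0.1001). Its levels were low, averaging 3.76 in GFP-positive mutant and 3.17 in control basal cells, below the median of all gene means, 3.86.

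Of 12 collapsin mediators and genes of the semaphorin 3A route, 1 was called. Plxna2, a plexin receptor for semaphorins, read 6.58, 5.73 and 5.55 in GFP-positive mutant basal cells, against 4.18, 4.20 and 4.10 in control basal cells, and it rose by 1.80 (SE 0.22, adjusted p = 0.0001087). Dpysl3, a paralog of Dpysl2, differed by -0.92 and was not called (adjusted p = 0.2385). Of 14 genes around the pleiotrophin receptor, Nfasc, which encodes the axonal adhesion molecule neurofascin, rose by 0.82 (SE 0.18, adjusted p = 0.01429) and Mdk fell. The Nfasc call was lost without control basal array 2 (adjusted p = 0.06204). None of 11 other sodium channel genes, 16 other calcium channel genes, 13 microtubule-associated and stathmin genes or 11 other calcium sensor genes was called by limma. In those families Map2 differed by 0.81 (adjusted p = 0.08833) and Hpcal1, a calcium sensor gene, by -0.95 (adjusted p = 0.1052). A fit on the GFP-positive and control basal arrays alone called 2 of the 5 relatives, Gria3 and Plxna2.

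**Figure D5:**
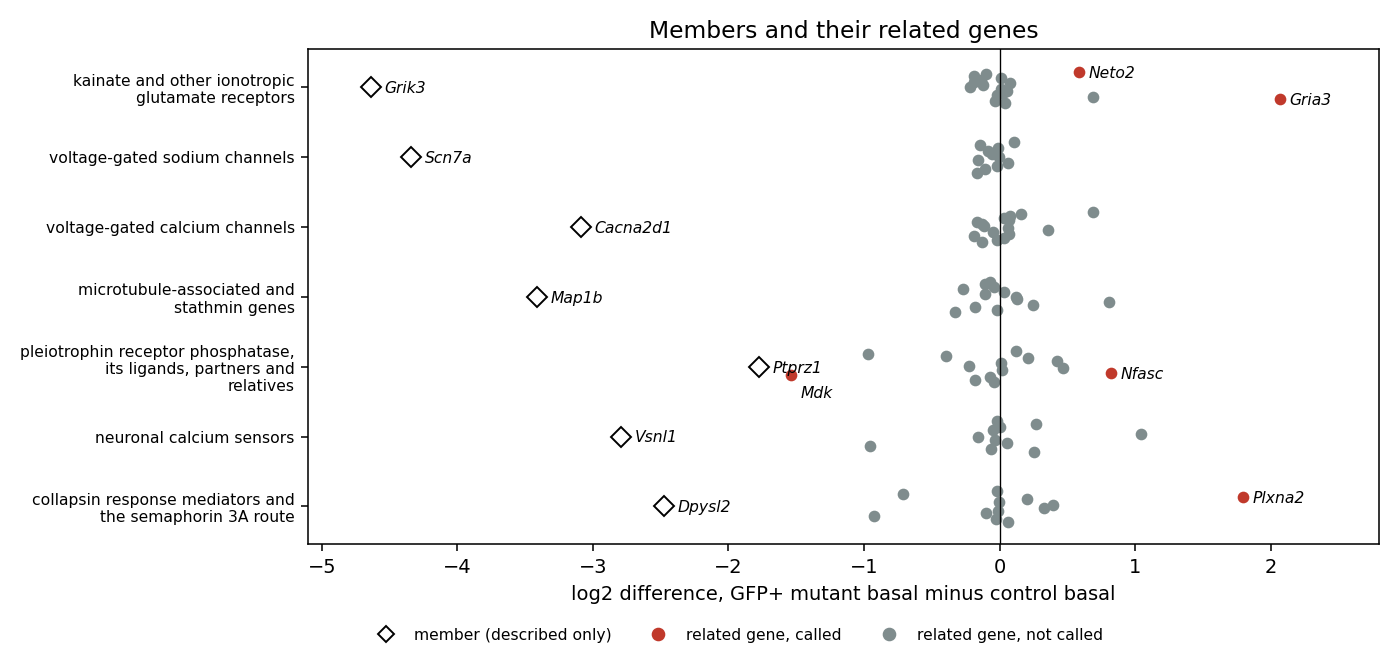
Log2 difference between GFP-positive mutant and control basal cells for the 7 genes (diamonds, described only) and their 94 measured relatives (dots) in 7 families. The 7 genes lie between -4.64 and -1.78, while the relatives have a median of -0.02, with Gria3, Plxna2, Nfasc and Neto2 called higher and Mdk called lower.

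The basal identity of the sort was checked with marker genes. The mean log2 level over 9 basal markers was 9.23 in GFP-positive mutant basal cells (9.06 to 9.51 over arrays), 9.53 in GFP-negative mutant basal cells (9.36 to 9.62) and 9.60 in control basal cells (9.51 to 9.65), against 4.96 in control Sca1-negative luminal cells. Of the 9, Oxtr, the oxytocin receptor gene, fell by 1.84 (adjusted p = 0.0039) and Myh11, smooth muscle myosin, fell by 0.70 (adjusted p = 0.01273) in GFP-positive against control basal cells. The keratin genes of the gate stayed high, with Krt5 at 10.78 ± 0.12 in GFP-positive mutant and 10.55 ± 0.19 in control basal cells (SD, n = 3 each). Over 8 luminal markers the mean level was 7.75 (7.15 to 8.30) in GFP-positive mutant cells and 6.99 (6.64 to 7.26) in control basal cells, and Krt18, Krt19 and Elf5 rose by 1.01, 1.48 and 1.84.

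Markers of other cells that could enter the gate were also read. The 10 neuron markers averaged 3.43 (3.35 to 3.55) in GFP-positive mutant and 3.52 (3.48 to 3.55) in control basal cells, and Syp alone fell, by 0.35 (adjusted p = 0.02525). Syp differed by -0.41 in GFP-negative mutant against control basal cells and was not called there (adjusted p = 0.08426). The 9 measured Schwann cell markers of 11 averaged 4.17 (4.13 to 4.22) in GFP-positive mutant and 4.27 (4.22 to 4.35) in control basal cells. S100b fell by 0.44 (adjusted p = 0.02992) and also fell in GFP-negative mutant against control basal cells, by 0.58 (adjusted p = 0.04819), while Sox10, which basal mammary cells also express, differed by 0.00 in the GFP-positive cells. Both Syp and S100b were dim. Syp averaged 3.58 in control and 3.23 in GFP-positive mutant basal cells, and S100b 3.81 and 3.38. The median of all gene means was 3.86. The 6 fibroblast markers averaged 5.04 (4.95 to 5.20) in GFP-positive mutant and 4.43 (4.33 to 4.49) in control basal cells, and Dcn rose by 3.15 and Col1a2 by 0.88. The other 4 were not called, and the median difference over the list was -0.03. Dcn also averaged 10.48 in control Sca1-negative and 11.20 in control Sca1-positive luminal cells, and 7.65 and 11.12 in the mutant cells of those gates. The 5 endothelial markers averaged 3.25 (3.18 to 3.36) in GFP-positive mutant and 3.65 (3.35 to 3.97) in control basal cells, with Cdh5 lower by 0.99. The 6 pericyte markers averaged 3.42 (3.29 to 3.58) in GFP-positive mutant and 3.45 (3.34 to 3.56) in control basal cells. Their median difference was -0.08, and Cspg4 rose by 0.72 while the other 5 were not called. Of 5 immune markers, 0 were called. In Sca1-negative luminal cells, Sox10 and Elf5 rose in the mutant together with Ptprz1, by 1.29 (adjusted p = 0.001245) and 2.23 (adjusted p = 0.01132), while the basal marker mean was 5.12 (4.99 to 5.29) in mutant and 4.96 (4.75 to 5.31) in control cells. The part of these markers in the results was not tested.

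The 7 genes varied together to different degrees over the 20 arrays, which share the group structure that chose them. Pairs among Grik3, Scn7a, Cacna2d1, Vsnl1 and Dpysl2 correlated at 0.895 to 0.983, and the lowest correlation of all pairs, 0.428, was between Scn7a and Map1b. Their spread within groups was widest among GFP-negative mutant basal arrays (median SD 0.78), followed by control basal arrays (median SD 0.52) and GFP-positive mutant basal arrays (median SD 0.24). Averaged over the 7 genes, the log2 level was 4.47, 4.47 and 4.02 in GFP-positive mutant basal cells, 8.22, 7.06 and 8.16 in GFP-negative mutant basal cells, and 7.81, 7.41 and 7.40 in control basal cells. All 3 GFP-positive averages were below the 6 others.

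Among 644 other genes that varied between groups, those whose levels followed the mean of the 7 most closely over the 20 arrays were Pappa (Pearson r 0.978), Tshz2 (0.973), Ankrd1 (0.972), Lgr5 (0.967) and Serping1 (0.961). Pappa, a protease that cleaves IGF-binding proteins, averaged 3.43 in GFP-positive mutant, 6.23 in GFP-negative mutant and 5.89 in control basal cells. Lgr5, a receptor for R-spondins that marks stem cells in several tissues, averaged 4.73 in GFP-positive mutant, 8.77 in GFP-negative mutant and 8.39 in control basal cells. Igf1r, the receptor for IGF1 upstream of PI3K, ranked 8 with r 0.950 and averaged 3.91 in GFP-positive mutant, 6.20 in GFP-negative mutant and 6.14 in control basal cells. The other places among the first 10 went to Lmod1 (0.952), Tnfsf9 (0.950), Nox4 (0.949) and Rai2 (0.940). Single genes differed in their nearest match, which was Tshz2 for Scn7a (0.987), Cacna2d1 (0.977) and Vsnl1 (0.976), Ankrd1 for Grik3 (0.981) and Scube3 for Dpysl2 (0.972). Map1b and Ptprz1 had no match as close, with Tbx3 at 0.729 and Plekhh2 at 0.793. These correlations describe arrays that share groups, and they carry no p.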

How the data were processed

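The authors deposited log2 probe set levels with 1 column per array, a unit read from the values, and the affy package is listed in the submitters' processing notes. The normalization is not given in the sources used here. Of 34760 probe sets, 21640 had a single symbol in the platform table, 1321 had several and 11799 were not listed there. The probe set with the highest mean was kept per gene, which left 19937 genes without a filter on intensity. The deposited values were used as they are.

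Differences came from 1 limma 3.58.1 model in R 4.3.3 with 7 group means over 20 arrays (lmFit, eBayes), with Benjamini-Hochberg adjustment over all genes within a contrast. Gates of the same mice were treated as independent arrays, so p-values measure the spread between sorted pools. The model was tested on simulated data. The 7 genes, the families and the marker lists were chosen with earlier results of these data known. Related genes were named where called, while Dpysl3, Map2 and Hpcal1 were named after their values were seen. Genes of like pattern were the 10 with the highest Pearson r to the mean of the 7, and the first for each gene, among genes whose group means had an SD of at least 1. Alternatives were a replicate block, a random replicate effect, array weights, only the arrays compared, an intensity trend, a filter on dim genes, the mean of probe sets, quantile normalization and each array left out. Replicate numbers were not treated as pairs, since the labels do not tie a number to a sorting and not every correlation was over 0.1. Over 19 same-number pairs the correlations of deviations ran from -0.05 to 0.13, with 2 above 0.1.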

Additional observations from a re-analysis of the deposited data

How the results depend on the processing

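Of 651 alternative values for single genes among the 7, 642 kept their side of the threshold, 9 lost the call and 0 reversed a called direction, while 29 values that were not called on either side changed sign. Ptprz1 alone was called in the main fit, between mutant and control Sca1-negative luminal cells and between the mutant luminal gates. Most of the 642 values thus had no call to lose, and all 9 losses were of those Ptprz1 calls. With the replicate block, Ptprz1 rose by 2.18 in Sca1-negative luminal cells (adjusted p = 0.02129, limma) and was lower (difference -2.75, adjusted p = 0.0065) in Sca1-positive than in Sca1-negative mutant cells. The block changed no call among the 7 genes, whose counts called stayed at 1 in both of these comparisons and 0 in the other 4, and it called 6 relatives in place of 5. Of 19 same-number pairs, 12 matched their own number best, a hint of pairing from the data and not from the design. All pairs between the control luminal gates and between the mutant basal groups did so. Pairs between the mutant luminal gates and pairs between genotypes did so only in part. Among mutant and control Sca1-negative luminal cells, 0 to 1 of the 7 genes were called when an array was left out. Without the pair of arrays with the narrowest spread of values the count was 0 (Ptprz1 adjusted p = 0.05319, limma). That alternative was chosen after seeing the data. The pair was GFP-positive mutant basal array 2 (SD over probe sets 1.71) and control Sca1-positive luminal array 2 (SD 1.72). Neither is in this comparison, so only the estimate of the spread changed there. Between mutant luminal gates 0 to 1 were called with an array left out. A lone mutant Sca1-positive array is then assumed to vary like the other groups. The fit on only the GFP-positive and control basal arrays called 2 relatives, and has fewer arrays to estimate the spread. The median difference of GFP-positive from GFP-negative cells of the mutant basal gate ran from -3.94 to -3.19 with an array left out. The cause of these losses was not tested. Low readings without detection calls limit what can be said of levels near background.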
